A study of Schizosaccharomyces pombe with 8 samples.

Results

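Small nucleolar RNAs (snoRNAs) were examined as the 53 gene rows of the deposited expression table whose identifier begins SPSNORNA, of 7022 gene rows in all. By the coordinates in that table, 10 of these rows lie inside an intron row, 27 overlap another gene row and 16 overlap none. The data are poly-A selected RNA-seq libraries of Schizosaccharomyces pombe (fission yeast) grown at 25 °C in yeast extract medium, 2 libraries per strain. The cwf10-ΔNTE strain lacks residues 2 to 127, the N-terminal extension, of Cwf10, a component of the spliceosome, and is labelled h- with ade6-M21X, leu1-32 and ura4-D18 (strain OHI408). The wild-type strain is labelled h- with leu1-32, ura4-D18 and ade6-M210 (strain OHI246), so both strains carry the leu1 and ura4 alleles, and the ade6 allele is spelled differently. Replicate cultures were grown together and processed apart, so the p-values below measure the spread between such libraries and may miss day-to-day spread.

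Most snoRNAs guide chemical marks onto ribosomal RNA inside small ribonucleoprotein particles. Box C/D snoRNAs, named for short sequences near their ends, direct 2′-O-methylation, and box H/ACA snoRNAs, named for an ACA close to the 3′ end, direct pseudouridylation. A few, such as U14 and U17 (snR30 in budding yeast), are needed for cutting of the precursor ribosomal RNA. In yeasts some snoRNAs are cut out of introns after splicing, some out of a longer RNA that holds several, and others are made from their own promoter. Mature snoRNAs carry no poly-A tail, and whether the reads counted over a snoRNA row come from tailed RNA was not tested. The libraries were made from fragments after oligo-dT selection, and the snoRNA rows are 47 to 326 bases long.

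The gene rows summed to 36186264 and 42593150 reads in the cwf10-ΔNTE libraries and to 40857033 and 42802817 in the wild-type libraries, and the snoRNA rows to 10218 and 11939 against 8371 and 8351 reads. Whether the counting used strand is not given in the sources used here, so a snoRNA row and an overlapping gene on the other strand may share reads. The deletion removes only the start of cwf10, and its row had 5096 and 6310 reads in cwf10-ΔNTE and 5666 and 6065 in wild type, which checks nothing. The ura4 row had 0 reads in all 4 libraries, and both strains are labelled ura4-D18. A row is called higher or lower where edgeR's quasi-likelihood test, Benjamini-Hochberg adjusted over the 6536 gene rows tested, gave an adjusted p below 0.05. A large share of all gene rows met this rule, 39.6% higher and 38.5% lower in cwf10-ΔNTE, with a median log2 change of 0.01. All levels are relative to the library, so fewer cells that hold an RNA and less of it per cell cannot be told apart.

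The 10 snoRNAs that lie in introns are printed first, since every result on splicing concerns them. None has a description that names box H/ACA. Sequences were read from the RefSeq genome of assembly ASM294v3, whose coordinates match the table for 51 of the 53 snoRNA rows, and run 5′ to 3′ on the strand of the snoRNA. Capitals mark the best match to box C (TGATGA, at most 1 mismatch, within the first 25 bases) and box D (CTGA within the last 15 bases). Where box C matches tied, the first is marked. In snoR54 the overlapping TGATGC matches equally well and is not marked.
snoR38: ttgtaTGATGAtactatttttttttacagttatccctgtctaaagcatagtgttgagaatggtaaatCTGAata
snoR39b: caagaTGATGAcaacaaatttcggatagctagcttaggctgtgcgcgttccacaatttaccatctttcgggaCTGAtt
snoR54: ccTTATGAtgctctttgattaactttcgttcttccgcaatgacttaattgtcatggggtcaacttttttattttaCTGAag
snoR47: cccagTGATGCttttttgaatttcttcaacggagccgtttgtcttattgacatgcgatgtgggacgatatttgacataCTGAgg
snoU24: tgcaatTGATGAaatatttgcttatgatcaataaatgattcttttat
snoR39a: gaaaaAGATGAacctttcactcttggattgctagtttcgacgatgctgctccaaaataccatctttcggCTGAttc
snoU18: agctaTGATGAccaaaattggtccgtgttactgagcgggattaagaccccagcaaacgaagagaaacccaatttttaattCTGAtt
snoR58: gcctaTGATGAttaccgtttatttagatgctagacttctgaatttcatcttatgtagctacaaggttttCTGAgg
snoU24b: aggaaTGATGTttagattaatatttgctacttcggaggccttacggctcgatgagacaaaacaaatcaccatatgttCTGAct
snoZ15: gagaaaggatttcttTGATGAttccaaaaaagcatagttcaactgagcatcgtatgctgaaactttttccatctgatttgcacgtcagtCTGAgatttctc

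Of these 10 rows, 6 hold TGATGA exactly, 10 hold it with at most 1 mismatch, 9 hold CTGA, and 9 hold both. Over all 34 snoRNA rows whose description does not name box H/ACA, 18 hold exact box C, 32 hold it with at most 1 mismatch, 28 hold box D and 27 hold both. Windows of 84 bases over the genome, both strands, held these at 1.001%, 12.5%, 3.89% and 0.508%. The row without CTGA near its end, snoU24, is also the shortest, 47 bases. Of the 19 rows described as box H/ACA (snR30, or U17, is not so described), 8 hold ACA 3 bases from the 3′ end, against 1.72% of 168-base windows, and 0 hold box C and box D together.

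The introns around the snoRNAs are all on the same strand as the snoRNA and begin with GT and end with AG. The intron with the largest change in reads is that of SPAC29A4.02c, the gamma subunit of translation elongation factor EF-1, at chrI:5144035-5144327, 293 bases, with snoR38 in capitals. The shortest is the intron of fta3, a CENP-H-like kinetochore protein, at chrII:3654284-3654440 on the minus strand, 157 bases, where snoR47 in capitals makes up 53.5% of the bases.
snoR38 intron: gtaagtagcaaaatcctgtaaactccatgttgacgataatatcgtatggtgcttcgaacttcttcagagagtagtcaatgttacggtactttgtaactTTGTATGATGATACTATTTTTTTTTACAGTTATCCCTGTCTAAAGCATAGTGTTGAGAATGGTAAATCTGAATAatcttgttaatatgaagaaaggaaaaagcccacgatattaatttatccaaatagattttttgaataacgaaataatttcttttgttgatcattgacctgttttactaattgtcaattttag
snoR47 intron: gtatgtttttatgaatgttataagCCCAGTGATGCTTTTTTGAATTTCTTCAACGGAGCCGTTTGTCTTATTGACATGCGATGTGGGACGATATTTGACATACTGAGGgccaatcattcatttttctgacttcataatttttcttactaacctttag

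The other hosts are of several kinds. snoR39b lies in the intron of rpl701, a ribosomal protein L7-like gene, and snoR39a in that of rlp7, a ribosome biogenesis gene of the same protein family. snoU24b lies in intron 2 of 2 of cpc2, the ribosomal RACK1 protein, snoR54 in gua1 (IMP dehydrogenase) and snoR58 in ade4 (amidophosphoribosyltransferase), both of purine synthesis. snoU18 lies in ero11 (ER oxidoreductin), snoZ15 in intron 3 of 3 of pfd1 (prefoldin subunit) and snoU24 in intron 4 of 4 of spt20 (SAGA coactivator complex). In budding yeast, U24, snR38, snR54 and snR39 also lie in introns of genes for RACK1, EF-1 gamma, IMP dehydrogenase and ribosomal protein L7.

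The rows of all 10 intron-borne snoRNAs were higher in cwf10-ΔNTE, from 1.37-fold for snoZ15 to 6.52-fold for snoR38. In each the lower cwf10-ΔNTE library lay above the higher wild-type library. Among all gene rows tested, 39.6% were called higher and 45.3% had both cwf10-ΔNTE libraries above both wild-type libraries. The median log2 change of the 10 rows was 1.70, beside 0.01 for all gene rows. These rows are parts of introns, and intron reads set against host gene reads were called higher in 47.1% of all introns tested. Among introns of at least 150 bases without a snoRNA row, 83.0% were called higher.

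snoR38 had 192 and 218 reads in the cwf10-ΔNTE libraries, against 25 and 38 in the wild-type libraries. That is 5.07 ± 0.13 CPM in cwf10-ΔNTE and 0.772 ± 0.21 CPM in wild type (counts per 1000000 gene reads after TMM scaling, mean ± SD, n = 2 each), log2 change 2.70 ± 0.17 SE, edgeR adjusted p = 5.47e-14. snoR39b had 204 and 216 reads in the cwf10-ΔNTE libraries, against 31 and 38 in the wild-type libraries (log2 change 2.61 ± 0.16 SE, edgeR adjusted p = 4.81e-14). snoR54 had 113 and 105 reads in the cwf10-ΔNTE libraries, against 21 and 25 in the wild-type libraries (log2 change 2.25 ± 0.22 SE, edgeR adjusted p = 3.29e-10). These 3 snoRNA rows were 4.74-fold to 6.52-fold higher in cwf10-ΔNTE by the fit, and the strains did not overlap.

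snoR47 had 220 and 190 reads in the cwf10-ΔNTE libraries, against 55 and 49 in the wild-type libraries (log2 change 1.99 ± 0.17 SE, edgeR adjusted p = 3.14e-11), and snoR39a had 47 and 62 reads in the cwf10-ΔNTE libraries, against 21 and 19 in the wild-type libraries (log2 change 1.45 ± 0.25 SE, edgeR adjusted p = 8.34e-06). snoU18 had 119 and 114 reads in the cwf10-ΔNTE libraries, against 46 and 56 in the wild-type libraries (log2 change 1.20 ± 0.18 SE, edgeR adjusted p = 7.04e-07). The change of snoU18 was 2.29-fold, and its wild-type libraries lay well below both cwf10-ΔNTE libraries. snoR58 had 81 and 92 reads in the cwf10-ΔNTE libraries, against 43 and 46 in the wild-type libraries (log2 change 0.96 ± 0.18 SE, edgeR adjusted p = 3.39e-05).

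The 3 remaining rows had small changes or few reads. snoU24b, in cpc2, had 115 and 121 reads in the cwf10-ΔNTE libraries, against 80 and 69 in the wild-type libraries, 1.59-fold (log2 change 0.67 ± 0.16 SE, edgeR adjusted p = 0.000394). snoZ15 had 58 and 83 reads in the cwf10-ΔNTE libraries, against 50 and 53 in the wild-type libraries (log2 change 0.46 ± 0.19 SE, edgeR adjusted p = 0.0309), where the lower cwf10-ΔNTE library stood just above the wild-type pair. The call of snoZ15 was lost without cwf10-ΔNTE replicate 2 (edgeR adjusted p = 0.263), without wild-type replicate 1 (0.11) and without wild-type replicate 2 (0.0898). snoU24 had 11 and 13 reads in the cwf10-ΔNTE libraries, against 2 and 4 in the wild-type libraries (log2 change 1.96 ± 0.55 SE, edgeR adjusted p = 0.00218), and its call was lost without wild-type replicate 1 (edgeR adjusted p = 0.0541). DESeq2 called 8 of the 10, with snoZ15 at an adjusted p of 0.196 and snoU24 at 0.0536.

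**Figure D1:**
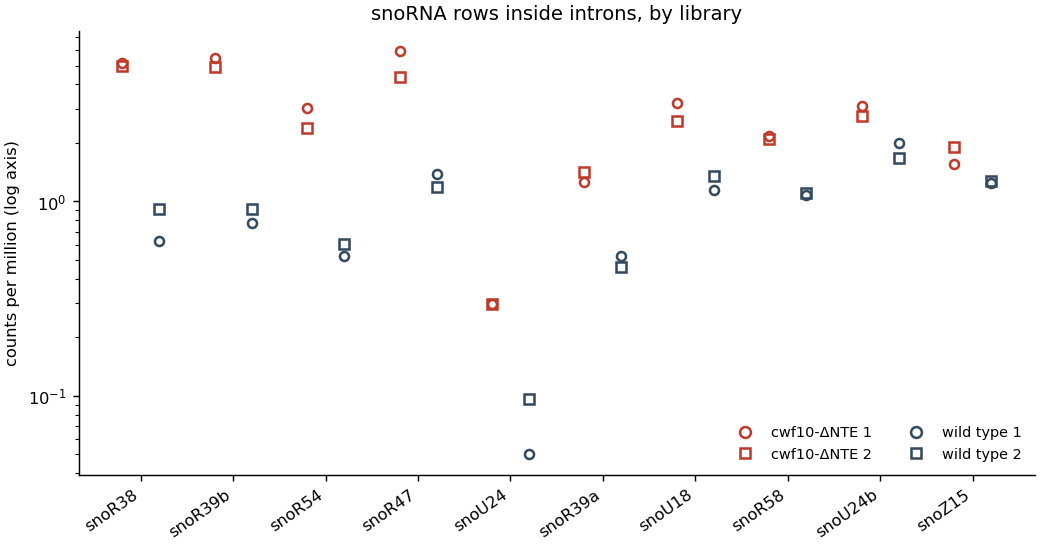
CPM (log axis) of the 10 snoRNA rows inside introns in each library, with cwf10-ΔNTE left of wild type and a symbol for each replicate. Every row had both cwf10-ΔNTE libraries above both wild-type libraries, with the widest gap at snoR38 and the narrowest at snoZ15.

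The reads of the whole surrounding intron were then set against the reads of the host gene row. All 10 introns were higher per host read in cwf10-ΔNTE (log2 changes 0.53 to 2.56, median 1.56), where 47.1% of the 5038 introns tested were called higher and the median over them was 0.81. Of 578 introns of at least 150 bases that hold no snoRNA row, 480, or 83.0%, were called higher, with a median of 1.14. Of the host gene rows, 7 were called lower, 2 higher (ero11 and spt20) and fta3 was not called, where 38.5% of all gene rows were lower and 39.6% higher, with log2 changes from -0.58 for pfd1 to 0.25 for ero11.

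Since the intron row also counts the snoRNA's own reads, its reads less those of the snoRNA row were tested alone, as the part outside the snoRNA. The counting rule is not given, so reads that cross an edge of the snoRNA may be counted in this part. This part was again called higher in 10 of 10 introns (log2 changes 0.37 to 2.45, median 1.48), where 47% of introns were called. Among introns of at least 150 bases without a snoRNA row, 83.0% were called higher by their intron reads, with a median of 1.14. In the SPAC29A4.02c intron the part outside snoR38 had 706 and 824 reads in cwf10-ΔNTE against 187 and 176 in wild type, or 11.2 ± 0.096 against 2.05 ± 0.16 per 1000 host reads (SD, n = 2 each; log2 change 2.45 ± 0.082 SE, edgeR adjusted p = 4.89e-18). In the rpl701 intron the part outside snoR39b had 787 and 927 reads against 327 and 320, and 10.5 ± 0.16 against 3.27 ± 0.22 per 1000 host reads (log2 change 1.69 ± 0.072 SE, edgeR adjusted p = 7.25e-16). Reads counted in the intron but not in the snoRNA row were thus higher in cwf10-ΔNTE, as were reads over the snoRNA row. Whether reads over a snoRNA row came from the cut-out snoRNA or from the unspliced intron was not tested.

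In the short fta3 intron, only 73 bases lie outside snoR47, 24 before it and 49 after it, so reads counted outside it may reach into it. This part had 95 and 113 reads in cwf10-ΔNTE against 32 and 25 in wild type (log2 change 1.82 ± 0.20 SE, edgeR adjusted p = 4.08e-08). In ade4 it had 344 and 451 reads against 170 and 176, in a host row that fell (log2 change -0.49 ± 0.024 SE), and the change per host read was 1.69 ± 0.096 SE (edgeR adjusted p = 1.98e-13). The smallest change was in cpc2, with 261 and 313 reads against 279 and 286 (log2 change per host read 0.37 ± 0.091 SE, edgeR adjusted p = 0.00158). The raw counts of this part, not scaled for depth, overlapped between the strains, while those of the whole intron were 376 and 434 against 359 and 355. The cpc2 gene row fell (log2 change -0.34 ± 0.030 SE). With gene library sizes in place of host reads, the whole cpc2 intron was not called (log2 change 0.19, edgeR adjusted p = 0.065).

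Reads that cross an exon-intron boundary and reads that join the exons followed the intron reads in only some of the introns. Exon-intron reads per host read were called higher in 3 of 10 introns, where 30.1% of 5021 introns tested were called, and the median log2 change was 0.21, beside 0.31 over all of them. The largest change was in ade4, with 38 and 33 exon-intron reads in cwf10-ΔNTE against 6 and 5 in wild type (log2 change 3.15 ± 0.39 SE, edgeR adjusted p = 2.12e-14). pfd1 had 68 and 89 against 64 and 64 (log2 change 0.88 ± 0.18 SE, edgeR adjusted p = 1.30e-05), and rpl701 had 82 and 114 against 66 and 74 (log2 change 0.77 ± 0.17 SE, edgeR adjusted p = 4.91e-05).

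In SPAC29A4.02c, the host with the largest change in intron reads, exon-intron reads were 2157 and 2469 in cwf10-ΔNTE against 2911 and 3103 in wild type, and per host read the difference was small beside its error (log2 change -0.0011 ± 0.042 SE). In cpc2 they were 3569 and 4140 against 4594 and 5162 (log2 change 0.01 ± 0.038 SE). In both introns, exon-intron reads outnumbered the reads of the whole intron row in every library. How the authors counted exon-intron reads is not given in the sources used here.

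Exon-exon reads per host read were called lower in 4 of 10 introns, where 19.8% of 4861 introns tested were called, with a median log2 change of -0.13 beside -0.15 over all. Intron 3 of pfd1, with snoZ15, had 40 and 55 exon-exon reads in cwf10-ΔNTE against 194 and 213 in wild type (log2 change -1.51 ± 0.15 SE, edgeR adjusted p = 7.49e-13). fta3 had 42 and 44 against 64 and 80 (log2 change -0.79 ± 0.20 SE, edgeR adjusted p = 0.00192), and ero11 had 71 and 71 against 96 and 92 (log2 change -0.65 ± 0.16 SE, edgeR adjusted p = 0.00177). In SPAC29A4.02c the fall was small (log2 change -0.11 ± 0.035 SE, edgeR adjusted p = 0.0181). Calls here depended on single libraries: 6 introns were called without cwf10-ΔNTE replicate 1 and 2 without cwf10-ΔNTE replicate 2 or without either wild-type replicate, while DESeq2 called 1, that of pfd1. In rpl701, which gave 6209 and 6930 exon-exon reads against 8078 and 8864, the change did not pass the test (log2 change -0.08 ± 0.031 SE, edgeR adjusted p = 0.0583).

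**Figure D2:**
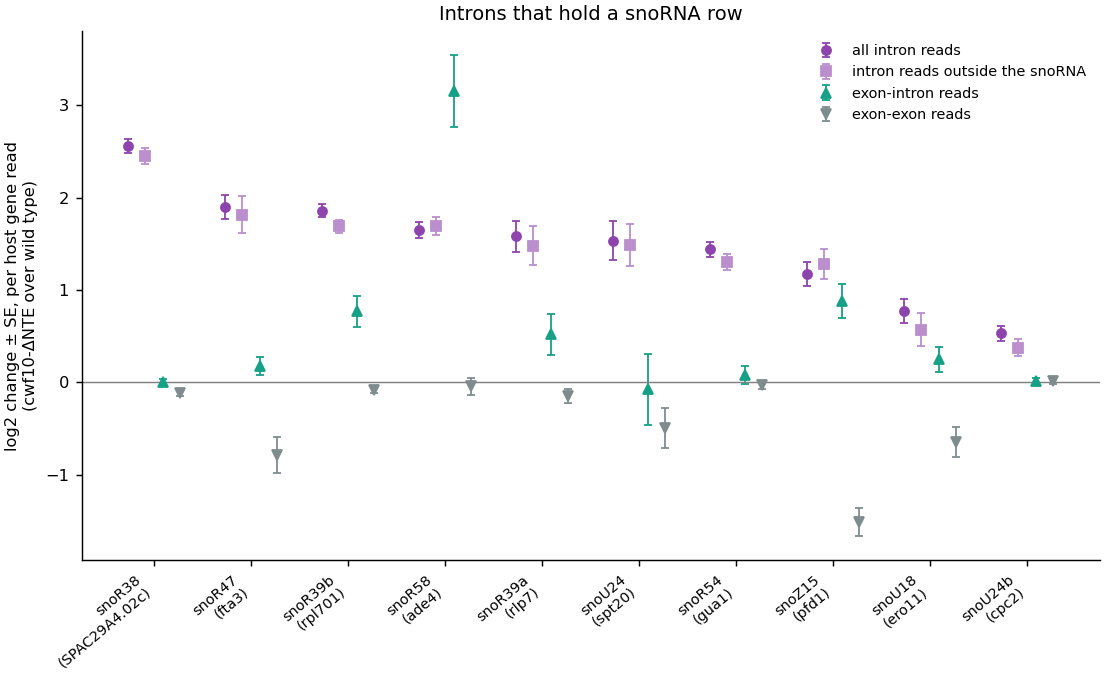
Log2 change ± SE, cwf10-ΔNTE over wild type and per host gene read, of 4 kinds of reads for the 10 introns that hold a snoRNA row, with the host in brackets. All intron reads and intron reads outside the snoRNA lie above 0 in every intron, exon-intron reads stand far above 0 in ade4, and exon-exon reads lie farthest below 0 in pfd1.

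Whether the snoRNA changed more than the intron around it was tested with the other reads of the intron as offset. In this and the like tests of shares below, the p-values leave out the counting error of those other reads. The rows were fitted and adjusted together with all introns tested, which carry host reads as offset. snoRNA reads rose relative to them in 4 of 10 introns and were not called in 6 (median log2 change 0.40, range -0.23 to 1.20). Without cwf10-ΔNTE replicate 1 the count was 2. snoR39b made up 20.6% and 18.9% of the rpl701 intron's reads in cwf10-ΔNTE and 8.66% and 10.6% in wild type, on 17.7% of its bases. The Wilson 95% intervals, which cover counting error only, were 18.2% to 23.2% and 16.7% to 21.3% in cwf10-ΔNTE and 6.17% to 12.0% and 7.83% to 14.2% in wild type (log2 change 1.20 ± 0.18 SE, edgeR adjusted p = 2.91e-06). snoR54 made up 20.1% and 17.0% of the gua1 intron's reads against 9.38% and 10.7%, on 24.4% of its bases (log2 change 1.02 ± 0.22 SE, edgeR adjusted p = 0.000522).

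snoU24b in cpc2 (30.6% and 27.9% against 22.3% and 19.4%; log2 change 0.64 ± 0.16 SE, edgeR adjusted p = 0.00158) and snoR38 (21.4% and 20.9% against 11.8% and 17.8%; log2 change 0.63 ± 0.20 SE, edgeR adjusted p = 0.0101) were also called. snoU24b covers 32.8% of the bases of its intron and snoR38 25.3%, so each held a smaller share of reads than of bases in every library. Reads that cross an edge of a snoRNA may not be counted in its row. A share of reads below the share of bases therefore need not mean fewer reads over the snoRNA. snoR47 held the largest share, 69.8% and 62.7% in cwf10-ΔNTE and 63.2% and 66.2% in wild type, which overlap. In ade4 and pfd1 the share of the snoRNA was below wild type in both cwf10-ΔNTE libraries, and neither passed the test (snoR58 log2 change -0.23 ± 0.19 SE, snoZ15 -0.23 ± 0.19 SE).

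The 27 snoRNAs that overlap another gene row were mixed: 13 were higher, 2 lower, 11 not called and 1 (snr62, with 0 to 3 reads per library) had too few reads to test, beside 39.6% and 38.5% of all gene rows. The median log2 change of the 26 tested was 0.29. The 3 largest rises (snoZ5, snoZ7 and snoZ8) were in a cluster of 5 snoRNAs, snoZ8, snoZ7, snoZ5, snoZ4 and snoZ3, that lie head to tail within the single noncoding RNA row snoZ. They are printed in their order along the RNA, with capitals as above.
snoZ8: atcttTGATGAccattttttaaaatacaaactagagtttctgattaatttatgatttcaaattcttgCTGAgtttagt
snoZ7: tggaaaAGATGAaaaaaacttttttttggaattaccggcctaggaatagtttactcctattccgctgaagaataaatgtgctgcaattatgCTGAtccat
snoZ5: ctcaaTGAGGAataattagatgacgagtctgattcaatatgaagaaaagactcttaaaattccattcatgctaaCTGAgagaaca
snoZ4: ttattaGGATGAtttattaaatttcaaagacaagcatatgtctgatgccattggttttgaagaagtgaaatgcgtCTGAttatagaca
snoZ3: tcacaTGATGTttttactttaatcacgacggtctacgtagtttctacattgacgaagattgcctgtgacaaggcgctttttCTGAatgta

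The cluster lies on chromosome I, with snoZ8 at chrI:526726-526803, plus strand, and snoZ3 at chrI:527624-527713, plus strand. The whole snoZ row had 3897 and 4679 reads in cwf10-ΔNTE against 1839 and 1924 in wild type (log2 change 1.19 ± 0.031 SE, edgeR adjusted p = 1.30e-22), and its reads outside the 5 snoRNAs were 2737 and 3328 against 1453 and 1499. snoZ5 had 301 and 343 reads in the cwf10-ΔNTE libraries, against 51 and 62 in the wild-type libraries (log2 change 2.52 ± 0.13 SE, edgeR adjusted p = 7.6e-16). snoZ7 had 131 and 178 reads in the cwf10-ΔNTE libraries, against 31 and 41 in the wild-type libraries (log2 change 2.10 ± 0.18 SE, edgeR adjusted p = 2.33e-11). snoZ4 had 539 and 619 reads in the cwf10-ΔNTE libraries, against 222 and 236 in the wild-type libraries (log2 change 1.34 ± 0.081 SE, edgeR adjusted p = 1.83e-14), and snoZ3 had 173 and 194 reads in the cwf10-ΔNTE libraries, against 76 and 83 in the wild-type libraries (log2 change 1.21 ± 0.14 SE, edgeR adjusted p = 6.46e-09). In each of these the strains did not overlap, but the rise was unequal along the row.

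snoZ5 made up 7.72% and 7.33% of the snoZ row's reads in cwf10-ΔNTE and 2.77% and 3.22% in wild type, a rise relative to the row's other reads (log2 change 1.47 ± 0.14 SE, edgeR adjusted p = 1.08e-09). snoZ7 rose too, to 3.36% and 3.80% against 1.69% and 2.13% (log2 change 1.06 ± 0.18 SE, edgeR adjusted p = 2.93e-05), and snoZ4 by less, 13.8% and 13.2% against 12.1% and 12.3% (log2 change 0.30 ± 0.085 SE, edgeR adjusted p = 0.00485). snoZ3, at 4.44% and 4.15% against 4.13% and 4.31%, overlapped between the strains. snoZ8 had 16 and 17 reads against 6 and 3 and was not called relative to the row (log2 change 0.83 ± 0.50 SE).

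**Figure D3:**
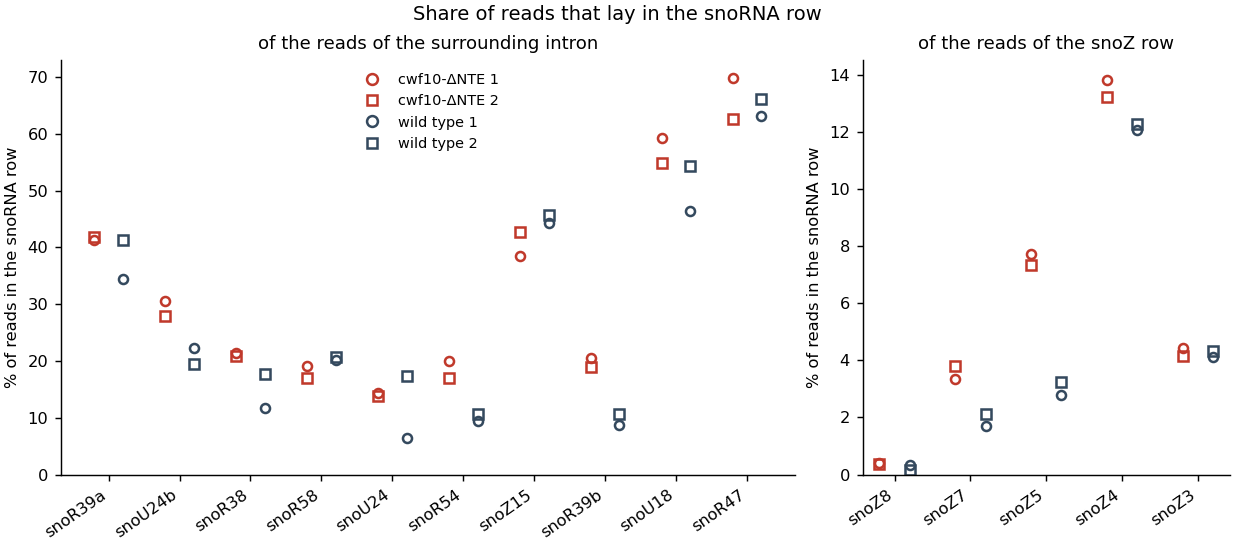
Share (%) of the reads of the surrounding intron (left, 10 snoRNAs) or of the snoZ row (right, 5 snoRNAs) that lay in the snoRNA row, per library, with cwf10-ΔNTE left of wild type. snoR39b, snoR54 and snoZ5 stand apart between the strains, and snoR47 and snoZ3 overlap.

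A second noncoding RNA, SPNCRNA.723, holds snR41, snR70 and snR51b, and its row had 333 and 388 reads in cwf10-ΔNTE against 238 and 239 in wild type (log2 change 0.60 ± 0.089 SE, edgeR adjusted p = 8.55e-07). snR41 had 31 and 33 reads in the cwf10-ΔNTE libraries, against 10 and 14 in the wild-type libraries (log2 change 1.41 ± 0.32 SE, edgeR adjusted p = 0.000259), and snR70 had 66 and 60 reads in the cwf10-ΔNTE libraries, against 27 and 34 in the wild-type libraries (log2 change 1.05 ± 0.23 SE, edgeR adjusted p = 0.000155). snR51b had 69 and 79 reads in the cwf10-ΔNTE libraries, against 73 and 64 in the wild-type libraries, which overlap, and its share of the row was lower, 20.7% and 20.4% against 30.7% and 26.8% (log2 change -0.47 ± 0.18 SE, edgeR adjusted p = 0.0302). The snoRNAs of a shared row thus did not change by equal amounts.

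The most abundant row per length was snR30, the U17 RNA, at 246 RPKM (CPM per kilobase) in cwf10-ΔNTE and 176 RPKM in wild type. It had 2959 and 3545 reads in the cwf10-ΔNTE libraries, against 2339 and 2316 in the wild-type libraries (log2 change 0.49 ± 0.032 SE, edgeR adjusted p = 1.34e-13). SPNCRNA.906, which overlaps snR30 on the same strand, had 3485 and 4189 reads against 2731 and 2707 and changed by 0.50 on the log2 scale. Whether the pair shares reads was not tested. snR90, a box H/ACA RNA inside SPNCRNA.1038, had 425 and 503 reads in the cwf10-ΔNTE libraries, against 304 and 294 in the wild-type libraries (log2 change 0.64 ± 0.081 SE, edgeR adjusted p = 5.42e-08), while that row rose more, and the share of snR90 in it was lower, 62.4% and 61.1% against 71.9% and 69.7% (log2 change -0.58 ± 0.086 SE, edgeR adjusted p = 3.03e-06). snR95, box H/ACA, had 368 and 410 reads in the cwf10-ΔNTE libraries, against 315 and 301 in the wild-type libraries (log2 change 0.34 ± 0.084 SE, edgeR adjusted p = 0.000645). sno52, opposite taf9, had 363 and 470 reads in the cwf10-ΔNTE libraries, against 345 and 363 in the wild-type libraries (log2 change 0.24 ± 0.081 SE, edgeR adjusted p = 0.00896), a call that was lost without cwf10-ΔNTE replicate 2 (edgeR adjusted p = 0.134) and under DESeq2 (0.0926).

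The 2 that fell are both box H/ACA RNAs. snR96 had 489 and 551 reads in the cwf10-ΔNTE libraries, against 707 and 745 in the wild-type libraries (log2 change -0.47 ± 0.063 SE, edgeR adjusted p = 1.5e-07). It lies opposite tim17, a mitochondrial import gene whose row fell by 0.39 on the log2 scale, and whether the pair shares reads was not tested. snR98, in SPNCRNA.814, had 66 and 73 reads in the cwf10-ΔNTE libraries, against 123 and 153 in the wild-type libraries (log2 change -0.98 ± 0.15 SE, edgeR adjusted p = 2.33e-06). The SPNCRNA.814 row had 406 and 500 reads against 482 and 501 and was not called, and snR98 fell relative to its other reads, to a share of 16.3% and 14.6% in cwf10-ΔNTE, against 25.5% and 30.5% in wild type (log2 change -1.11 ± 0.16 SE, edgeR adjusted p = 2.45e-06). By strand, 11 of 20 snoRNAs on the same strand as the gene row they overlap were higher and 1 lower, and 2 of 7 on the opposite strand were higher and 1 lower, beside 39.6% higher and 38.5% lower among all gene rows. The 11 include all 5 snoRNAs of the snoZ row, and snR41 and snR70 of the SPNCRNA.723 row, so they are not 11 separate RNAs.

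The 16 snoRNAs that overlap no gene row had no shared direction: 4 were higher, 7 lower, 3 not called and 2 too low to test, with a median log2 change of -0.34 over the 14 tested. Over all gene rows tested, 39.6% were higher and 38.5% lower. The 4 that were higher have no box H/ACA description, and 6 of the 7 that were lower are box H/ACA RNAs. Examples of both are printed, with box C, box D or the ACA near the 3′ end in capitals. snoR54b has neither CTGA nor an exact box C in these windows.
snoU14: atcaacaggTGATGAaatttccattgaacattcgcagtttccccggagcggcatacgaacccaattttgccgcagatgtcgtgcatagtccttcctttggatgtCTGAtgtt
snoR56: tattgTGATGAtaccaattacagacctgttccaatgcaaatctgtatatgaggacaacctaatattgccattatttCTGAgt
snoR54b: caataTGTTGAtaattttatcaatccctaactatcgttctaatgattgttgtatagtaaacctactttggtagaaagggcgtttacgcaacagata
snR33: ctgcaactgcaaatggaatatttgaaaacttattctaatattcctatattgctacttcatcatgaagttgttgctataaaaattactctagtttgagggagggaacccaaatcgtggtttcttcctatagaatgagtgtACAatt
snR93: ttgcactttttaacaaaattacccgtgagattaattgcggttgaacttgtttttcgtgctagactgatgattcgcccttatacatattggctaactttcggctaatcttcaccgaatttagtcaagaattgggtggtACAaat

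snoU14, the U14 RNA of 18S ribosomal RNA processing, lies at chrII:1308634-1308745, plus strand, and had 278 and 365 reads in the cwf10-ΔNTE libraries, against 140 and 124 in the wild-type libraries (log2 change 1.29 ± 0.11 SE, edgeR adjusted p = 4.16e-11). The intergenic row before it, 2512 bases on its 5′ side, had 7213 and 8868 reads in cwf10-ΔNTE against 2822 and 2684 in wild type, 2.93-fold. snR40 had 52 and 50 reads in the cwf10-ΔNTE libraries, against 27 and 27 in the wild-type libraries (log2 change 0.92 ± 0.24 SE, edgeR adjusted p = 0.00104), and snoR56 had 81 and 89 reads in the cwf10-ΔNTE libraries, against 50 and 50 in the wild-type libraries (log2 change 0.77 ± 0.18 SE, edgeR adjusted p = 0.000379). snoR69 had 34 and 41 reads in the cwf10-ΔNTE libraries, against 19 and 23 in the wild-type libraries (log2 change 0.84 ± 0.27 SE, edgeR adjusted p = 0.00601), and was not called without wild-type replicate 1 (edgeR adjusted p = 0.0638) or by DESeq2 (0.0866). For these 4 rows, the intergenic rows on both sides were also higher in both cwf10-ΔNTE libraries, from 1.67-fold to 3.42-fold in mean CPM.

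The largest fall was in snoR54b, which had 9 and 7 reads in the cwf10-ΔNTE libraries, against 54 and 38 in the wild-type libraries (log2 change -2.50 ± 0.34 SE, edgeR adjusted p = 2.45e-07). The 431 bases of intergenic row on its 5′ side had 25 and 39 reads against 164 and 157. snR33, box H/ACA, had 68 and 69 reads in the cwf10-ΔNTE libraries, against 133 and 124 in the wild-type libraries (log2 change -0.90 ± 0.16 SE, edgeR adjusted p = 8.98e-06). snR93 had 43 and 62 reads in the cwf10-ΔNTE libraries, against 89 and 95 in the wild-type libraries (log2 change -0.80 ± 0.18 SE, edgeR adjusted p = 0.000214). snR46 had 122 and 133 reads in the cwf10-ΔNTE libraries, against 186 and 215 in the wild-type libraries (log2 change -0.65 ± 0.12 SE, edgeR adjusted p = 2.85e-05). In these 4 the strains stood apart, and the intergenic row at the lower coordinate was also lower in both cwf10-ΔNTE libraries. The intergenic row at the higher coordinate was also lower in mean CPM for snoR54b and snR33, while that of snR93 was 1.12-fold and that of snR46 1.43-fold of wild type.

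snR101 had 270 and 319 reads in the cwf10-ΔNTE libraries, against 402 and 417 in the wild-type libraries (log2 change -0.47 ± 0.082 SE, edgeR adjusted p = 1.09e-05), and snR42 had 71 and 76 reads in the cwf10-ΔNTE libraries, against 94 and 103 in the wild-type libraries (log2 change -0.41 ± 0.16 SE, edgeR adjusted p = 0.0207). The intergenic rows on both sides of snR101 and of snR42 were also lower in both cwf10-ΔNTE libraries. The call of snR42 was lost without cwf10-ΔNTE replicate 2 (edgeR adjusted p = 0.129), without wild-type replicate 2 (0.108), with DESeq2 (0.139) and with library totals (0.0581). snR10 had 28 and 35 reads in the cwf10-ΔNTE libraries, against 46 and 48 in the wild-type libraries (log2 change -0.57 ± 0.23 SE, edgeR adjusted p = 0.0264), a call that was lost on leaving out any single library (edgeR adjusted p = 0.0732 to 0.0995), with DESeq2 (0.169) and with library totals (0.0558). sno12 had 398 and 509 reads in the cwf10-ΔNTE libraries, against 432 and 378 in the wild-type libraries and snR5 had 103 and 127 reads in the cwf10-ΔNTE libraries, against 135 and 144 in the wild-type libraries, and neither was called. sno12 passed the test without wild-type replicate 1 (edgeR adjusted p = 0.00747) and with library totals (0.00691). snR94 had 124 and 115 reads in the cwf10-ΔNTE libraries, against 119 and 114 in the wild-type libraries, and its fitted direction changed with single libraries.

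**Figure D4:**
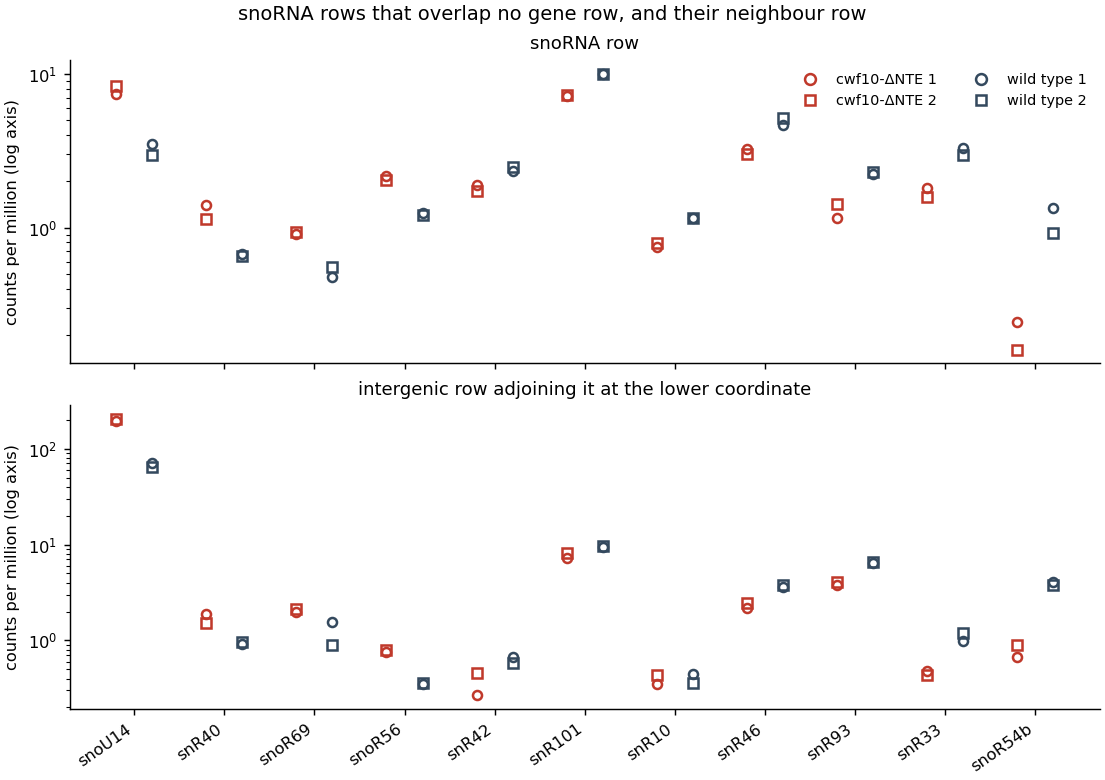
CPM (log axis) of the 11 called snoRNA rows that overlap no gene row (above) and of the intergenic row adjoining each at the lower coordinate (below), per library, with cwf10-ΔNTE left of wild type. Every row except snR10 moves the same way as its neighbour row, with the strains apart in both, while the neighbour of snR10 overlaps between the strains.

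By box family, 2 of the 19 rows described as box H/ACA were higher, 8 lower and 9 not called (median log2 change -0.27), where 39.6% of all gene rows were higher and 38.5% lower. snR30 (U17), a box H/ACA RNA in budding yeast, has no such description and stands among the other rows, and with it the H/ACA count was 3 higher and 8 lower of 20 (median -0.23). Of the other 34 rows, 25 were higher, 1 lower, 5 not called and 3 too low to test (median 0.96). Without the 10 in introns, 15 of the other 24 were higher and 1 lower (median of the 21 tested 0.77). The 15 include the 5 snoRNAs of the snoZ row, and snR41 and snR70 of the SPNCRNA.723 row. The difference between the families was not tested.

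**Figure D5:**
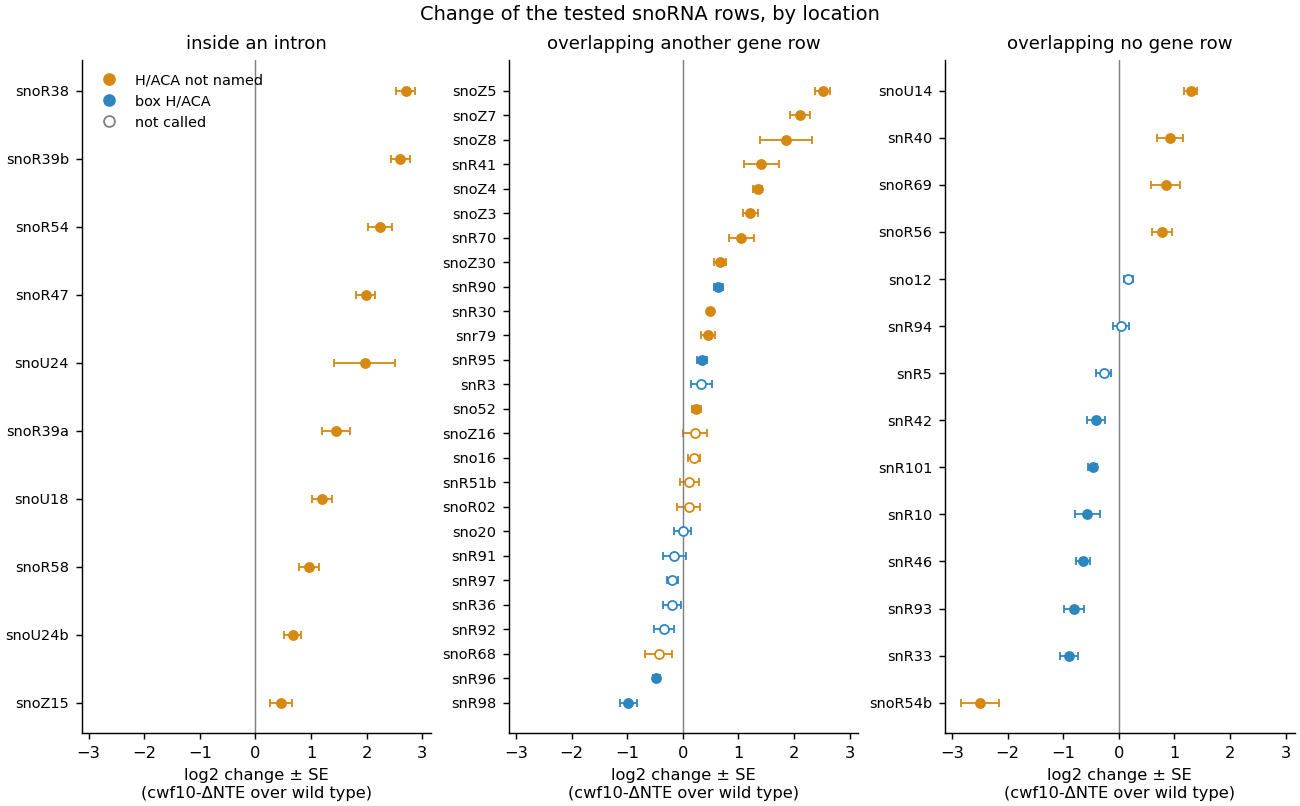
Log2 change ± SE, cwf10-ΔNTE over wild type, of the 50 tested snoRNA rows, in 3 panels by location, with rows described as box H/ACA in blue, other rows in orange and rows not called as open points. All 10 rows in introns lie above 0, and 6 of the 7 rows called lower among those overlapping no gene row are box H/ACA.

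Summed over rows, snoRNAs took 282.4 and 280.3 of each 1000000 gene reads in cwf10-ΔNTE and 204.9 and 195.1 in wild type, a ratio of 1.41. The rows in introns took 30.3 ± 2.51 against 9.21 ± 0.086 (SD, n = 2 each), 3.29-fold more. Rows overlapping a gene row took 204.3 ± 0.87 against 144.8 ± 5.03, and rows overlapping none 46.8 ± 0.18 against 46.0 ± 1.97. The 19 rows described as H/ACA took 86.4 ± 1.5 against 90.6 ± 2.49, but with snR30 the direction turned, to 168.9 ± 0.47 against 146.3 ± 4.71. With 2 libraries per strain, an exact permutation test cannot pass 0.05, and none was made on these sums.

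Genes for proteins that bind, assemble or process snoRNAs were mostly lower in cwf10-ΔNTE. Of 79 such genes tested, 64 were lower, 6 higher and 9 not called, where 38.5% of all gene rows were lower and 39.6% higher. Their median log2 change was -0.30, beside 0.01 for all gene rows. Scaled by library totals, the counts were 53 lower and 15 higher. The gene rows of all 4 box C/D particle proteins tested were lower. The row of fib1, the gene of the methyltransferase fibrillarin, averaged 766 ± 9.4 CPM in cwf10-ΔNTE and 1063 ± 7.1 in wild type (n = 2 each, log2 change -0.47 ± 0.026 SE, edgeR adjusted p = 1.95e-15), and nop58 changed by -0.42. Of 6 genes for box H/ACA particle and assembly proteins, 5 were lower and shq1 was not called. nop10 averaged 66.9 ± 1.5 CPM against 111 ± 1.1 (log2 change -0.73 ± 0.028 SE, edgeR adjusted p = 1.10e-18), and nhp2 changed by -0.71.

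The gene rows of all 4 assembly factors (hit1 -0.35, rvb2 -0.26 on the log2 scale) and of all 24 tested proteins of the U3 small subunit processome were lower. mpp10, a U3-associated protein, averaged 133 ± 1.1 CPM in cwf10-ΔNTE and 205 ± 1.9 in wild type (log2 change -0.63 ± 0.023 SE, edgeR adjusted p = 2.45e-19), and utp6 changed by -0.58. Of 24 genes of snoRNA end processing and capping, 18 were lower, 3 higher and 3 not called, among them mtr4, the exosome's RNA helicase, at 182 ± 5.9 against 297 ± 2.3 CPM (log2 change -0.70 ± 0.024 SE, edgeR adjusted p = 5.53e-20). sla1, a La protein that binds new RNA ends, changed by -0.66. pac1, the RNase III-like ribonuclease, and pab2, a nuclear poly-A binding protein, were slightly higher (log2 changes 0.18 and 0.11), and dbr1, the enzyme that opens intron lariats, was not called at 62.2 ± 0.047 CPM against 59.7 ± 0.62.

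Of 17 termination genes, 9 were lower, 3 higher and 5 not called, beside 38.5% lower and 39.6% higher among all gene rows. dri1, an RNA-binding protein of heterochromatin assembly, had the largest fall (log2 change -0.93 ± 0.022 SE, edgeR adjusted p = 2.49e-23), pta1 changed by -0.37, and rhn1 rose by 0.28 and cft2 by 0.18. The part of these genes in the changes of the snoRNA rows was not tested.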

How the data were processed

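The table holds raw read counts per gene, intron and intergenic row and log2 splicing efficiencies, as deposited by the authors. Poly-A RNA of 2 cwf10-ΔNTE and 2 wild-type cultures was sequenced with a stranded kit, per the labels' protocols, and first-read counts were used. The submitters' processing notes list Bowtie 0.12.7 and CASAVA 1.8.2 and do not say what each did. Genome build, annotation and counting rule were not given in the sources used here. Exon-exon reads were recovered from the authors' deposited log2 splicing efficiencies, whole within 0.001. The members, gene lists and rules were chosen with earlier results of these data known.

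Gene rows were fitted with edgeR 4.0.16 in R 4.3.3 (filterByExpr, TMM, quasi-likelihood test, Benjamini-Hochberg over all rows tested), and DESeq2 1.42.0 was the alternative. Intron fits covered introns with at least 10 summed reads and a host of at least 50 reads in every library, with log(host reads + 1) as offset. Tests of snoRNA reads within a surrounding row, and of intron reads outside the snoRNA, were added after seeing the data and assume that a row counts every read that its snoRNA row counts. Rows were given by library if inside an intron, if among the 6 with most reads of the other classes, or if among up to 5 called rows with the largest change each way and at least 20 mean reads. snoZ8, snR70, snR51b, snR42 and snr62 fall outside this rule and were chosen after their values were seen. From each list, up to 2 called genes each way were taken, and dbr1 and shq1 were added after seeing values. The scripts were tested on simulated data.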

Additional observations from a re-analysis of the deposited data

How the results depend on the processing

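Of 27 snoRNA rows called higher and 9 called lower, DESeq2 gave 23 and 7, library totals 30 and 7, and no filter on low counts, or snoRNA rows left out of library sizes, 27 and 9. For rows inside introns the count of 10 became 8 with DESeq2 and 8 to 10 without single libraries. Rows overlapping a gene row ranged from 12 to 14 higher without single libraries and 2 were lower in each such fit, and rows overlapping none counted 4 higher with 5 to 6 lower (without wild-type replicate 1, snoR69 lost its call and sno12 gained one). All 10 surrounding introns were higher with DESeq2, with at least 40 summed reads and without each library, and 9 with gene library sizes as offset. Exon-intron reads were higher in 3 introns under every alternative run. Exon-exon reads were lower in 4 introns, but in 1 with DESeq2 and in 2 to 6 without single libraries, and the cause was not tested. snoRNA reads within the intron were higher in 4 rows and in 2 to 5 without single libraries. The 6 higher and 64 lower snoRNA-related genes became 15 and 53 with library totals, and 5 higher and 61 to 62 lower without single libraries. Of 1000000 gene reads, snoRNA rows took 198.8 in cwf10-ΔNTE and 144.3 in wild type without snR30, and 46.8 and 46.0 over rows overlapping no gene row. Without single libraries the sums over all rows were 280.3 to 282.4 in cwf10-ΔNTE and 195.1 to 204.9 in wild type.

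Leaving out single libraries reversed the direction of small log2 changes: snR94 ranged from -0.12 to 0.22, with the sign reversed without cwf10-ΔNTE replicate 1 and without wild-type replicate 2 (-0.011). Exon-intron reads ranged from -0.024 to 0.052 for the intron holding snoU24b, -0.023 to 0.022 for snoR38, -0.34 to 0.26 for snoU24 and -0.0070 to 0.17 for snoR54. Exon-exon reads ranged from -0.010 to 0.042 for snoU24b and -0.11 to 0.019 for snoR58. The replicate numbers do not pair the libraries: the correlation of same-numbered deviations was 0.025 over 6536 gene rows. With a replicate block the counts were 27 higher and 9 lower snoRNA rows, 10 introns with higher intron reads, 3 with higher exon-intron reads and 3 with lower exon-exon reads, since the intron holding snoR38 was no longer called. Depth limits the rows with few reads: 3 snoRNA rows could not be tested, and snoU24 had at most 13 reads in a library.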
